A study of Homo sapiens with 6 samples.

Results

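The genes described here are 29 genes of cholesterol synthesis and its control by the sterol regulatory element binding proteins (SREBPs), chosen by name from the 34234 gene symbols of the deposited count table. The choice was made with earlier results of these data known. All 29 were found, and 28 had enough counts to be tested. They comprise 8 genes of the mevalonate and isoprenoid steps, 3 of squalene and lanosterol formation, 9 of the steps after lanosterol, 6 of SREBP control and 3 of sterol transfer and storage. They do not hold every enzyme of the route, and enzymes outside the list are not analysed here. RNA was measured by poly-A sequencing in HCCLM3, a human hepatocellular carcinoma line. One group received a lentivirus with a control hairpin (shcontrol, 3 libraries) and the other a lentivirus with a hairpin against ATXN7L3 (shATXN7L3, 3 libraries); both grew in DMEM with serum, and the medium was changed after 16 hours. The labels give no hairpin sequence and do not state whether replicates came from separate cultures. The p-values therefore reflect only how these libraries vary, and that variation may be technical.

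Cells build cholesterol from acetyl-CoA. Acetyl units are joined and converted through mevalonate into isoprenoid diphosphates, which are condensed to squalene, closed to lanosterol and trimmed to cholesterol in the endoplasmic reticulum; a side branch supplies the lipid anchors of prenylated proteins. When membrane sterol is low, SCAP escorts SREBP to the Golgi, where proteases release the transcription factor that switches on these genes; when sterol is plentiful, INSIG proteins hold SCAP back. In liver this pathway supplies lipoproteins and bile acids.

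ATXN7L3, the target of the hairpin and an adaptor of the SAGA deubiquitinase module, gave 36.4, 37.5 and 37.5 CPM (counts per 1000000 library counts, scaled by TMM) in shcontrol against 20.6, 20.5 and 19.5 CPM in shATXN7L3. It was at 54.5% of the control level (edgeR adjusted p = 6.69e-10). Library totals ran from 22376867 to 23915783 counts. Of 17935 genes tested with the edgeR quasi-likelihood F-test, 2150 (12%) fell and 2182 (12.2%) rose at an adjusted p under 0.05, a split that became 1604 lower and 2955 higher with scaling by library size alone. Of 8 hepatocyte markers, TF (206 CPM), FGB (89.0 CPM), ALB (65.2 CPM), HNF4A (43.5 CPM), SERPINA1 (18.6 CPM) and AFP (2.91 CPM) were detected in shcontrol, TTR and APOA2 were under 1 CPM in both groups, and 7 of 7 tested fell; their summed level was 401 to 444 CPM in shcontrol and 152 to 158 CPM in shATXN7L3. The part of this shift in the results below was not tested. Of the markers of other cells, 4 of 5 leukocyte, 2 of 4 endothelial and 5 of 6 fibroblast and stellate genes stayed under 1 CPM; the summed levels were 89.9 to 110, 57.2 to 62.1 and 23.8 to 28.0 CPM in shcontrol and 120 to 125, 42.4 to 44.4 and 5.43 to 5.94 CPM in shATXN7L3, and their part was not tested either. These sums came nearly all from CD68, PECAM1, KDR and LUM. CD68 had 100 CPM in shcontrol and 122 CPM in shATXN7L3, a rise that passed. PECAM1 (43.7 and 28.0 CPM) and LUM (25.6 and 5.22 CPM) had falls that passed, and KDR (15.5 and 15.3 CPM) did not pass. The other listed markers, PTPRC, CD3E, CD14, LYZ, CDH5, VWF, COL1A1, COL1A2, COL3A1, DCN and PDGFRB, were under 1 CPM in both groups. Of these only LYZ was tested, and it fell (log2 fold change -2.42, edgeR adjusted p = 1.47e-04). In bulk RNA, fewer cells that express a gene and less of its RNA per cell cannot be told apart.

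More genes of the pathway fell than rose in shATXN7L3. Of the 28 tested, 13 fell, 2 rose and 13 did not pass. That is 46.4% lower and 7.14% higher, against the 12% and 12.2% of all tested genes given above. Because earlier results of these data were known when the genes were chosen, these shares are a description and not independent support. The 28 genes had a median log2 fold change of -0.13, where all tested genes had 0.01. Well measured genes pass more often, and with a limit of 10 CPM, chosen after the data were seen, 13 of 25 pathway genes fell, against 16.2% of 9478 genes, and 1 of 25 rose, against 15.8%. The changes were modest: the genes that fell kept between 65.7% (MSMO1) and 89.0% (INSIG2) of the control level. The groups did not overlap for 14 genes lower and 3 higher in shATXN7L3, against 18.4% and 19.8% of all tested genes. Of the 13 genes that fell, 9 kept their call under all 13 alternatives run; HMGCS1, IDI1, INSIG2 and MVK did not.

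**Figure D1:**
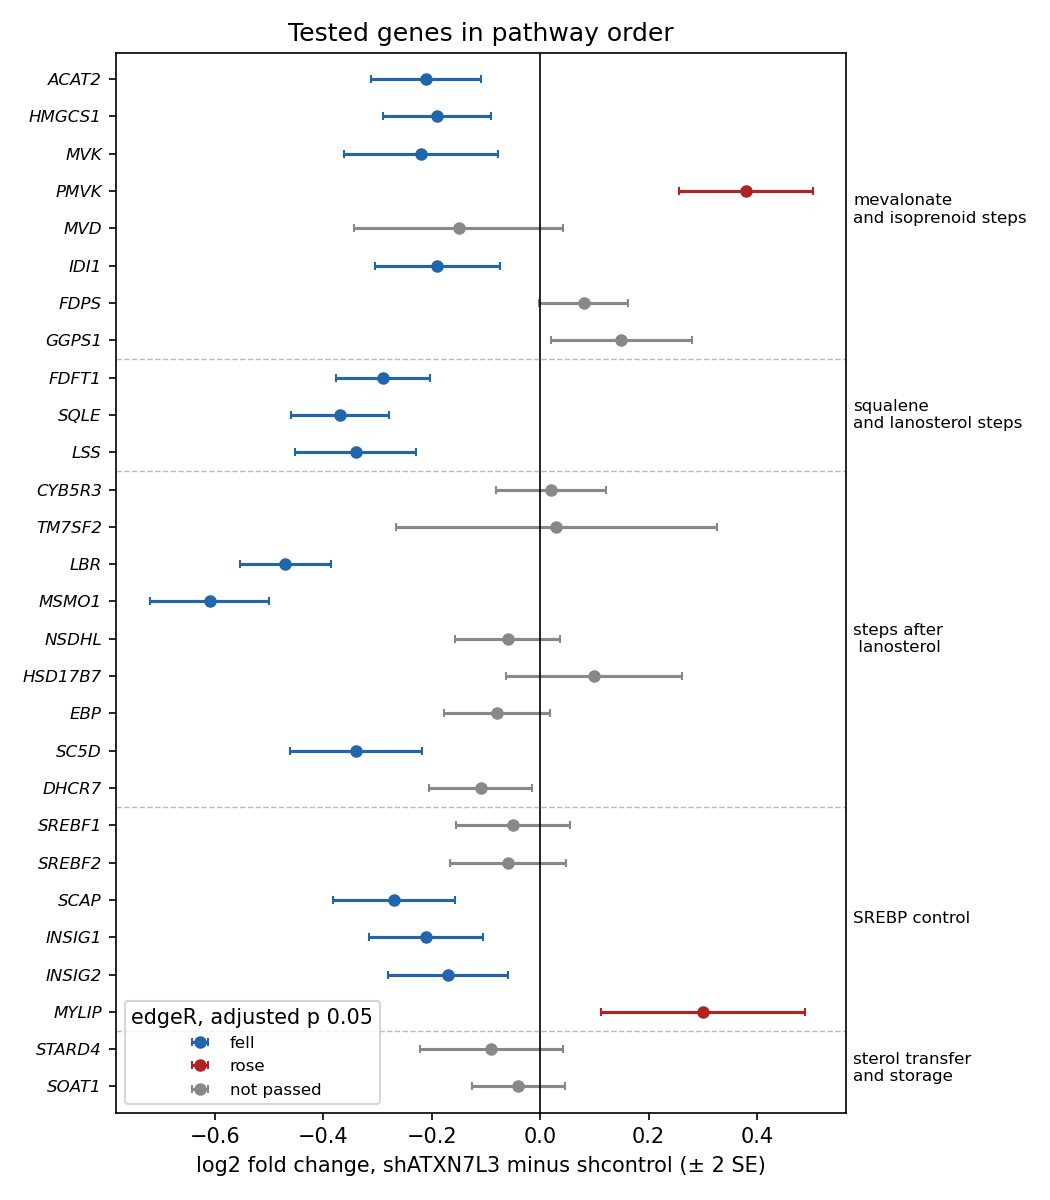
Log2 fold change of each of the 28 tested genes, from first enzyme (top) to sterol storage (bottom), with bars of 2 SE on each side; blue points fell, red rose and grey did not pass the edgeR test. All 3 genes of the squalene and lanosterol steps lie between -0.37 and -0.29, while the genes before and after them are mixed.

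The enzymes of the first steps, ACAT2 and HMGCS1, both fell slightly. ACAT2, the cytosolic thiolase that joins acetyl-CoA units (chromosome 6, 159760328 to 159779055, GRCh38), gave 46.7, 44.9 and 43.9 CPM in shcontrol and 38.4, 39.2 and 39.3 CPM in shATXN7L3. HMGCS1, the synthase that adds the next acetyl unit (chromosome 5, 43289395 to 43313512), gave 56.5, 58.4 and 54.7 CPM against 49.6, 51.2 and 48.3 CPM. The groups were separate for both genes. ACAT2 fell by 0.21 ± 0.051 (SE) in log2 units (edgeR adjusted p = 0.00402) and HMGCS1 by 0.19 ± 0.050 (edgeR adjusted p = 0.00949). The HMGCS1 call was lost without shcontrol replicate 2 (edgeR adjusted p = 0.0552) or shATXN7L3 replicate 3 (0.0684). Exon bases of ACAT2 overlap SOD2 on the opposite strand over 43.0% of its length, and no source used here states whether counting used strand, so reads of the 2 genes cannot be told apart; SOD2 rose by 0.28. ACAT2 also overlaps TCP1 on the opposite strand over 9.23% of its exon bases. TCP1 had 190 CPM before TMM scaling in shcontrol and a log2 fold change of -0.06. HMGCS1 overlaps CTD-2636A23.2 in the same way over 15% of its exon bases. Before TMM scaling CTD-2636A23.2 had 18.7 CPM and HMGCS1 55.6 CPM in shcontrol. Its log2 fold change, -0.18, was close to that of HMGCS1 but did not pass (edgeR adjusted p = 0.0809). The part of shared reads in the HMGCS1 decrease was not tested.

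The consecutive kinases of mevalonate moved in opposite directions. MVK, mevalonate kinase, gave 21.1, 19.5 and 19.8 CPM in shcontrol and 16.0, 17.0 and 18.8 CPM in shATXN7L3. PMVK, phosphomevalonate kinase (chromosome 1, 154924734 to 154936991), gave 20.8, 21.2 and 18.9 CPM against 26.2, 26.5 and 26.4 CPM. The groups were separate for both, with the shATXN7L3 libraries of PMVK almost equal. PMVK rose by 0.38 ± 0.062 on the log2 scale, to 130% of control (edgeR adjusted p = 1.38e-04), and kept its call under every alternative run. MVK fell by 0.22 ± 0.071 (edgeR adjusted p = 0.0283), a call lost with DESeq2 (adjusted p = 0.0865), with library size alone (0.0792), without shcontrol replicate 1 (0.0759) and without shATXN7L3 replicate 1 (0.159) or 2 (0.0984).

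MVD, the decarboxylase that follows, ranged from 8.84 to 11.6 CPM in shcontrol and from 9.0 to 9.42 CPM in shATXN7L3, so the groups overlapped (log2 fold change -0.15 ± 0.096, edgeR adjusted p = 0.275). Its control libraries varied by 13.7% (coefficient of variation), the widest spread of the 28 genes. IDI1, the isomerase that makes the reactive isoprenoid unit, gave 55.6, 52.5 and 57.1 CPM in shcontrol and 48.9, 51.7 and 44.4 CPM in shATXN7L3. The highest shATXN7L3 library of IDI1 lay just below the lowest control library. IDI1 fell by 0.19 ± 0.058 (edgeR adjusted p = 0.0211), but the call was lost with library size alone (0.088) and without shATXN7L3 replicate 1 (0.0585) or 3 (0.17). IDI1 overlaps IDI2-AS1 on the opposite strand over 17.9% of its exon bases, and MVK overlaps MMAB over 4.73%. Before TMM scaling IDI2-AS1 had 2.65 CPM and IDI1 54.2 CPM in shcontrol. IDI2-AS1 had a log2 fold change of -0.32 that did not pass (edgeR adjusted p = 0.182).

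The branch point enzymes did not share the decrease. FDPS, farnesyl diphosphate synthase, gave 369, 371 and 376 CPM in shcontrol and 392, 400 and 386 CPM in shATXN7L3. GGPS1, which extends farnesyl to geranylgeranyl diphosphate for protein prenylation, gave 20.2, 19.7 and 22.3 CPM against 23.3, 22.1 and 23.7 CPM. The groups were separate for FDPS and overlapped for GGPS1, and neither passed the test (log2 fold changes 0.08 ± 0.041 and 0.15 ± 0.065, edgeR adjusted p = 0.185 and 0.103). With library size alone both passed as higher (edgeR adjusted p = 0.029 and 0.0495), and GGPS1 also passed without shcontrol replicate 3 (0.031). The log2 ratio of FDPS to GGPS1 was 4.16 ± 0.0836 in shcontrol and 4.09 ± 0.0786 in shATXN7L3 (SD, n = 3 each; two-sided exact permutation p = 0.2). FDPS overlaps RUSC1-AS1 on the opposite strand over 18.6% of its exon bases, and RUSC1-AS1 had a log2 fold change of 0.03. GGPS1 overlaps ARID4B in the same way over 3.62%. Before TMM scaling ARID4B had 138 CPM and GGPS1 20.4 CPM in shcontrol. Entries named as copies of FDPS had up to 0.411 CPM there, and how shared reads were counted is not given.

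The enzymes that commit farnesyl diphosphate to sterols were lower at every step. FDFT1, squalene synthase (chromosome 8, 11795573 to 11839309), gave 131, 126 and 129 CPM in shcontrol and 106, 106 and 105 CPM in shATXN7L3. SQLE, squalene epoxidase, a rate-controlling step (chromosome 8, 124998497 to 125022283), gave 268, 246 and 266 CPM against 204, 203 and 198 CPM. LSS, the cyclase that closes lanosterol (chromosome 21, 46188141 to 46228824), gave 57.2, 52.2 and 60.9 CPM against 44.7, 44.3 and 45.3 CPM. In each case the shATXN7L3 libraries were close together and well below all controls. The log2 decreases were 0.29 ± 0.043 for FDFT1, 0.37 ± 0.045 for SQLE and 0.34 ± 0.056 for LSS (edgeR adjusted p = 5.55e-05, 5.02e-06 and 1.26e-04), and none of the alternatives ended a call. FDFT1 and LSS overlap opposite-strand noncoding genes that had under 2 CPM in shcontrol. The levels were 82.0%, 77.6% and 78.8% of control.

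**Figure D2:**
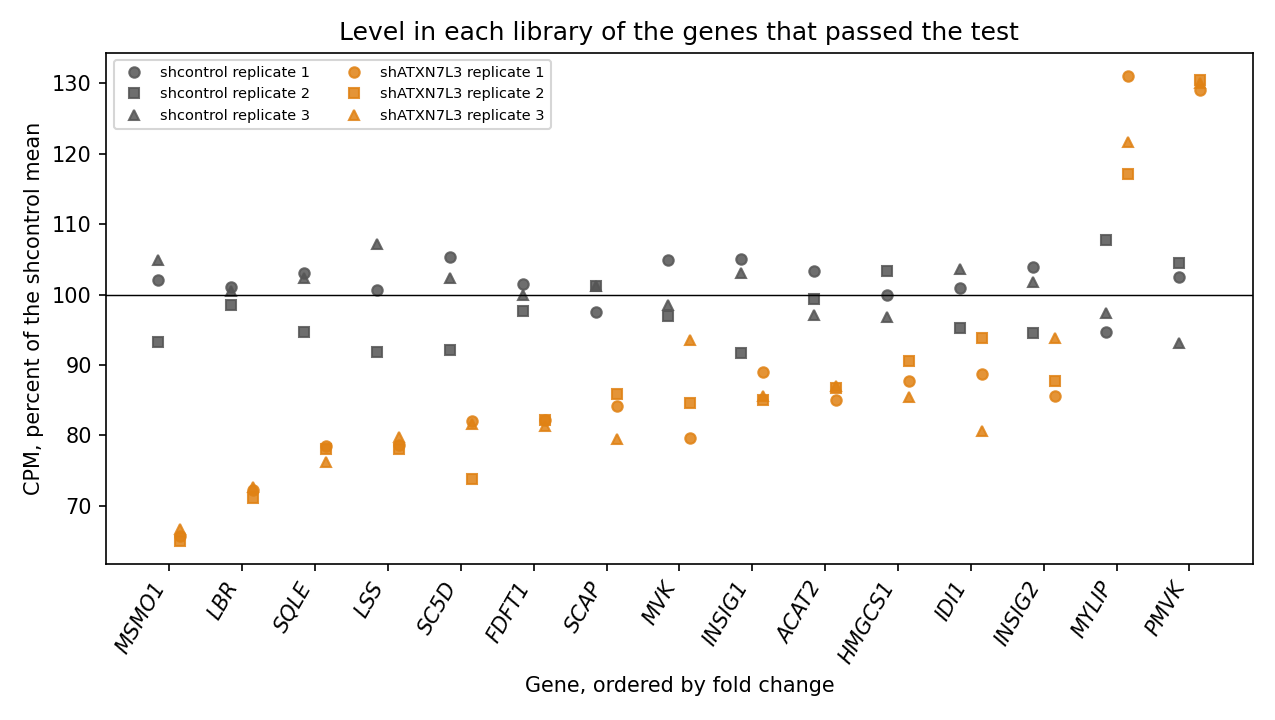
Each of the 6 libraries as a percent of the shcontrol mean CPM, for the 15 genes that passed the test, ordered by fold change; grey symbols are shcontrol, orange shATXN7L3, and the symbol shape gives the replicate number. The groups do not overlap for any of the 15, and the gap is narrow for IDI1 and INSIG2.

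After lanosterol, 3 of 9 genes fell (33.3%, against 12% of all tested genes) and the other 6 did not pass. MSMO1, the oxidase that removes methyl groups from the sterol nucleus (chromosome 4, 165327623 to 165343160), gave 50.2, 45.9 and 51.6 CPM in shcontrol and 32.3, 32.0 and 32.8 CPM in shATXN7L3. Its fold change was the lowest of the 28 genes, at -0.61 ± 0.055 in log2 units (edgeR adjusted p = 1.03e-07). SC5D, a desaturase late in the route (chromosome 11, 121292453 to 121308694), gave 45.8, 40.1 and 44.5 CPM against 35.7, 32.1 and 35.5 CPM. The control library of replicate 2 was the lowest for both genes, and still lay above all shATXN7L3 libraries. SC5D fell by 0.34 ± 0.061 (edgeR adjusted p = 3.60e-04).

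LBR and TM7SF2 carry out the same sterol reduction, and LBR also anchors lamin B at the inner nuclear membrane. LBR (chromosome 1, 225401502 to 225428925) gave 196, 191 and 195 CPM in shcontrol and 140, 138 and 141 CPM in shATXN7L3. It fell by 0.47 ± 0.042 on the log2 scale, to 72.2% of control (edgeR adjusted p = 7.44e-08). TM7SF2 was near the bottom of the pathway at 2.58, 2.58 and 2.86 CPM against 2.62, 2.78 and 2.76 CPM, from 56 to 67 counts per library, with a log2 fold change of 0.03 ± 0.15. Its interval at 2 SE, 83.0% to 125% of control, is wide because of this depth. Per length, LBR stood at 55.0 ± 2.44 TPM (counts divided by exonic length and scaled to a fixed total) and TM7SF2 at 1.17 ± 0.109 TPM in shcontrol (mean ± SD, n = 3), and at 40.2 and 1.21 TPM in shATXN7L3, so LBR was far the more abundant of the pair in both groups. The log2 ratio of TM7SF2 to LBR went from -6.14 ± 0.0777 to -5.64 ± 0.0510 (SD, n = 3 each), with no overlap; the two-sided exact permutation p was 0.1, the smallest that 3 against 3 libraries allow (0.4 after Benjamini-Hochberg adjustment over the 4 gene pairs compared).

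The other enzymes after lanosterol had estimates between 92.7% (DHCR7) and 107% (HSD17B7) of control. NSDHL, a sterol dehydrogenase of the demethylation complex, had a log2 fold change of -0.06 ± 0.048, and HSD17B7, the ketoreductase that works with it, 0.10 ± 0.081. An entry named as a copy of HSD17B7 had 0.147 CPM in shcontrol before TMM scaling. EBP, the sterol isomerase, had -0.08 ± 0.049 and CYB5R3, the cytochrome b5 reductase that supplies electrons, 0.02 ± 0.051. None of these passed the edgeR test (adjusted p from 0.25 to 0.784), and the groups overlapped for all 4. DHCR7, the reductase of the final step, gave 73.8, 74.2 and 78.0 CPM in shcontrol and 68.9, 68.5 and 72.3 CPM in shATXN7L3. The DHCR7 groups were separate, but the difference of -0.11 ± 0.047 did not pass (edgeR adjusted p = 0.105). The ± 2 SE intervals of NSDHL (90.0% to 103%), EBP (88.3% to 101%) and CYB5R3 (94.8% to 109%) do not reach the 65.7% seen for MSMO1, the largest decrease. Those of EBP and DHCR7 (86.8% to 99.0%) include the 89.0% of INSIG2, so decreases as small as some that passed remain possible for these 2 genes.

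**Figure D3:**
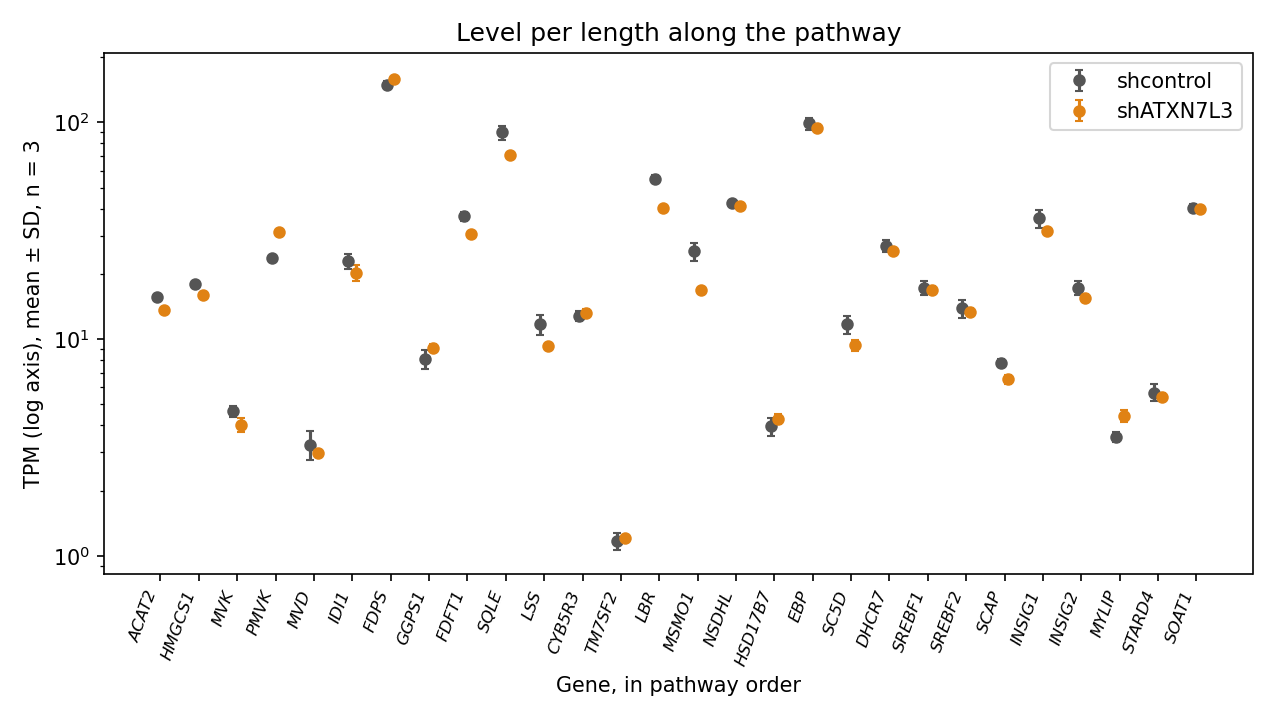
Mean TPM with SD over 3 libraries, on a log axis, for the 28 tested genes in pathway order; SOAT2, near 0, is left out. FDPS, EBP and SQLE are highest in shcontrol and TM7SF2, MVD and MYLIP lowest, and the order of levels along the pathway is much the same in both groups.

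Levels along the pathway differed far more between genes than between groups. On the per-length scale in shcontrol, FDPS was highest at 149 ± 6.32 TPM, followed by EBP at 99.0 ± 6.35 TPM and SQLE at 90.0 ± 6.83 TPM, the last 2 within their spread of each other. LBR (55.0 TPM), NSDHL (42.3 ± 1.21 TPM), SOAT1 (40.4 ± 1.79 TPM), FDFT1 (36.9 ± 1.80 TPM) and INSIG1 (36.1 ± 3.53 TPM) came next, and among the last 4 neighbours overlapped in their spread. At the low end, above TM7SF2, stood MVK (4.64 TPM), HSD17B7 (3.96 TPM), MYLIP (3.54 TPM) and MVD (3.26 ± 0.497 TPM). Lengths are all exon bases of a gene as deposited, so genes with long rare exons are understated. In raw counts, the 29 genes took 0.211% to 0.226% of each shcontrol library and 0.204% to 0.207% of each shATXN7L3 library, without overlap.

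Among the regulators, the transcription factors themselves showed no change that passed the test, while partners that place them did. SREBF1, which encodes SREBP-1, gave 99.2, 88.1 and 92.0 CPM in shcontrol and 85.3, 90.8 and 94.0 CPM in shATXN7L3. SREBF2, which encodes the SREBP-2 factor most tied to cholesterol genes (chromosome 22, 41833079 to 41907308), gave 73.2, 64.7 and 72.8 CPM against 67.9, 64.6 and 69.3 CPM. Both genes overlapped between groups. Their levels were 96.7% (90.0% to 104% at ± 2 SE) and 95.8% (88.9% to 103%) of control (edgeR adjusted p = 0.561 and 0.443). The SREBF2 interval includes the 89.0% of INSIG2, so a decrease as small as that one remains possible for SREBF2. SREBF1 overlaps RAI1 on the opposite strand over 6.92% of its exon bases, and SREBF2 overlaps RP5-821D11.7 over 3.71%. The log2 ratio of SREBF1 to SREBF2 was 0.41 ± 0.0603 in shcontrol and 0.42 ± 0.0828 in shATXN7L3 (SD, n = 3 each; two-sided exact permutation p = 0.9). These are mRNA levels and say nothing of how much of each protein was cleaved.

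SCAP, the escort of SREBP (chromosome 3, 47413694 to 47477126), gave 31.9, 33.1 and 33.1 CPM in shcontrol and 27.5, 28.1 and 26.0 CPM in shATXN7L3. INSIG1, a retention protein whose gene is itself a target of SREBP (chromosome 7, 155297776 to 155310235), gave 92.9, 81.1 and 91.1 CPM against 78.7, 75.1 and 75.7 CPM. INSIG2, its relative (chromosome 2, 118088452 to 118110997), gave 47.4, 43.1 and 46.4 CPM against 39.0, 40.0 and 42.8 CPM. All 3 were separate between groups, INSIG2 by the smallest margin. SCAP fell by 0.27 ± 0.056 and INSIG1 by 0.21 ± 0.053 in log2 units (adjusted p by edgeR = 0.00151 and 0.00611). INSIG2 fell by 0.17 ± 0.055 (edgeR adjusted p = 0.0312), and lost the call with DESeq2 (adjusted p = 0.0725), with library size alone (0.121), without shcontrol replicate 1 (0.067) and without shATXN7L3 replicate 1 (0.158) or 2 (0.117). The log2 ratio of INSIG1 to INSIG2 was 0.95 ± 0.0357 in shcontrol and 0.91 ± 0.0950 in shATXN7L3, a difference within the spread (exact permutation p = 0.6, two-sided).

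MYLIP, a ubiquitin ligase that marks lipoprotein receptors for degradation and a target of the sterol-activated liver X receptors, gave 6.84, 7.78 and 7.03 CPM in shcontrol and 9.46, 8.46 and 8.79 CPM in shATXN7L3. The groups were separate. MYLIP rose by 0.30 ± 0.094 in log2 units (adjusted p = 0.0235 by edgeR), a call lost with DESeq2 (adjusted p = 0.111), without shcontrol replicate 1 (0.0657) or 3 (0.0558) and without shATXN7L3 replicate 1 (0.109) or 3 (0.0563). It rests on 154 to 220 counts per library.

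Sterol transfer and storage showed no change that passed. STARD4, a soluble carrier of sterol between membranes, was at 94.2% of control (86.0% to 103% at ± 2 SE) and SOAT1, which esterifies cholesterol for storage, at 97.0% (91.3% to 103%). The edgeR adjusted p was 0.39 for STARD4 and 0.506 for SOAT1, and the groups overlapped for both. SOAT2, the second esterifying enzyme, had 0, 4 and 0 counts in shcontrol and 2, 2 and 2 counts in shATXN7L3 and was not tested. At this depth a difference in SOAT2 was not detectable.

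The promoters of the 29 genes were searched for short motifs, because SREBP acts together with NF-Y and Sp1 at sterol-responsive promoters. RefSeq sequences (GRCh38.p14, 250 bases before to 50 after a start) matched 25 of the 29 genes. Both strands were searched for the sterol regulatory element TCACNCCAC, the NF-Y box CCAAT, the GC box GGGCGG bound by Sp1 and the E-box CACGTG, and none of these contains another. The strict sterol element was found in 1 of 25 genes, SREBF2, against 1.39% of 27305 genes with a promoter in the table. The NF-Y box was found in 20 of 25 (80.0%, against 39.7% of genes), the GC box in 23 of 25 (92.0%, against 48.3%) and the E-box in 5 of 25 (20%, against 8.77%). The comparison genes were not matched in expression or in promoter entries (35 for the 25 genes, 35116 for the 27305). What part either has in these shares was not tested. A match is a run of letters and no evidence of binding, and sterol elements that differ from this spelling are not found by it.

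The windows below show the match nearest upstream of a RefSeq start in genes that fell, where it ends before that start, with the sterol element of SREBF2 first for reference. Each is 30 bases, 5′ to 3′ on the gene's strand, with the motif in capitals; ATTGG is the NF-Y box read on the other strand. The E-box of LSS lies past the start and is not shown. The windows of IDI1, MVK, MSMO1, SC5D and SCAP, the E-box of INSIG1 and part of the HMGCS1 window lie inside the deposited gene bounds, which begin upstream of the RefSeq start used.
SREBF2 sterol element, chr22:41832962-41832991, plus strand: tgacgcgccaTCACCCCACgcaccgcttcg
HMGCS1 NF-Y box, chr5:43313495-43313524, minus strand: ctaccggccgcgATTGGctgtgggagccac
IDI1 NF-Y box, chr10:1048956-1048985, minus strand: ctggcgcgagcgATTGGctgcgcggcccgg
MVK NF-Y box, chr12:109573736-109573765, plus strand: tcgcgcgctctgATTGGctggcctgaagta
LSS NF-Y box, chr21:46228907-46228936, minus strand: cgcggcgctctgATTGGttgcgtgggcgtc
MSMO1 NF-Y box, chr4:165327623-165327652, plus strand: agctctcgcaggCCAATaacgacaggacgg
SC5D NF-Y box, chr11:121292703-121292732, plus strand: cgccggtcgctgATTGGctggccgctccag
INSIG1 NF-Y box, chr7:155297696-155297725, plus strand: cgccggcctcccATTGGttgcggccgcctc
INSIG1 E-box, chr7:155297811-155297840, plus strand: gccgggcaggctCACGTGatgcgggccccg
SC5D E-box, chr11:121292628-121292657, plus strand: gcgcgcggcgccCACGTGaccgcggagagc
SCAP E-box, chr3:47475982-47476011, minus strand: cgccgctgggcgCACGTGcggagggcggcg

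Counted by outcome, the NF-Y box was in 7 of the 10 genes that fell and have a promoter entry and in 12 of the 13 that did not pass. GC boxes were in 9 of 10 and 12 of 13, and E-boxes in 4 of 10 and 1 of 13. LBR, second only to MSMO1 in its decrease, had none of the 4 motifs in this window. MYLIP had NF-Y and GC boxes, and PMVK a GC box. These counts are a description of few genes and were not tested.

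Of neighbouring pathways, the machinery that cleaves SREBP or degrades sterol-regulated proteins was lower in 4 of 11 genes (36.4%, against 12% of all tested genes) and higher in 1 (9.09%, against 12.2%). Each of the 11 averaged above 10 CPM, where 16.2% of all genes fell and 15.8% rose. MBTPS1, the site-1 protease that makes the first cut in SREBP, averaged 91.8 ± 1.51 CPM in shcontrol and 81.0 ± 1.65 CPM in shATXN7L3 (mean ± SD, n = 3 each), a decrease that passed the test (log2 fold change -0.18; adjusted p = 0.00514 by edgeR). ERLIN2, a membrane scaffold that binds cholesterol, fell by 0.27 (edgeR adjusted p = 3.01e-04). C12orf49, a factor needed for SREBP processing, rose by 0.30, with 58.1 ± 4.11 CPM in shcontrol and 71.8 ± 5.05 CPM in shATXN7L3 (adjusted p = 7.31e-04 by edgeR). MBTPS2, the site-2 protease, had a log2 fold change of -0.01 and did not pass. The genes that use isoprenoids split evenly, with 2 of 14 lower and 2 higher. That is 14.3% each way, near the 12% and 12.2% of all tested genes. In this list ZMPSTE24 and ICMT, which process prenylated proteins, each fell by 0.23. RABGGTB, a subunit of the transferase that prenylates Rab proteins, rose by 0.19. RABGGTB overlaps ACADM and small nucleolar RNA genes on the same strand, and ERLIN2, ICMT and ZMPSTE24 overlap opposite-strand exons over short stretches.

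Sterol trafficking and liver X receptor genes moved both ways, 4 of 14 lower (28.6%, against 12% of all tested genes) and 3 higher (21.4%, against 12.2%). NPC1, which exports cholesterol from lysosomes, rose by 0.64 ± 0.044, with 102 ± 3.76 CPM in shcontrol and 159 ± 1.21 CPM in shATXN7L3 (adjusted p = 2.00e-09 by edgeR). NPC1 overlaps C18orf8 on the opposite strand over 5.98% of its exon bases, and C18orf8 rose by 0.28. LIPA, the lysosomal acid lipase that frees cholesterol from its esters, fell from 53.5 ± 2.84 to 39.5 ± 2.10 CPM, and the sterol exporter ABCG1 from 7.59 ± 0.435 to 4.93 ± 0.218 CPM (edgeR adjusted p = 7.71e-06 and 1.51e-04). ABCG1 is, like MYLIP, a target of the liver X receptors; the 2 genes differed in direction.

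Fatty acid genes that SREBP also drives moved both ways, 5 of 12 lower (41.7%, against 12% of all tested genes) and 3 higher (25%, against 12.2%). All 12 averaged above 10 CPM, and of all genes at that level 16.2% fell and 15.8% rose. ELOVL5, an elongase of polyunsaturated fatty acids, fell by 0.35, while the elongase ELOVL6 rose by 0.70 and the desaturase FADS1 by 0.33 in log2 units (adjusted p by edgeR = 1.13e-05, 5.91e-08 and 1.32e-05). FADS1 and FADS2 overlap on opposite strands. In the list of oxysterol and bile acid formation, 6 of 9 genes were found here and 3 tested: HSD3B7 rose by 0.49, AMACR rose by 0.30 and CYP27A1 fell by 0.23. These were 2 of 3 higher and 1 of 3 lower, against 12.2% and 12% of all tested genes, and rest on few genes. HSD3B7 overlaps an opposite-strand gene over 64.6% of its exon bases and AMACR a same-strand read-through gene over 55.0%, so both values are uncertain; the AMACR call was also lost with DESeq2 (adjusted p = 0.154), without shcontrol replicate 1 (0.0897) or 2 (0.132) and without shATXN7L3 replicate 1 (0.0604), 2 (0.151) or 3 (0.07).

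**Figure D4:**
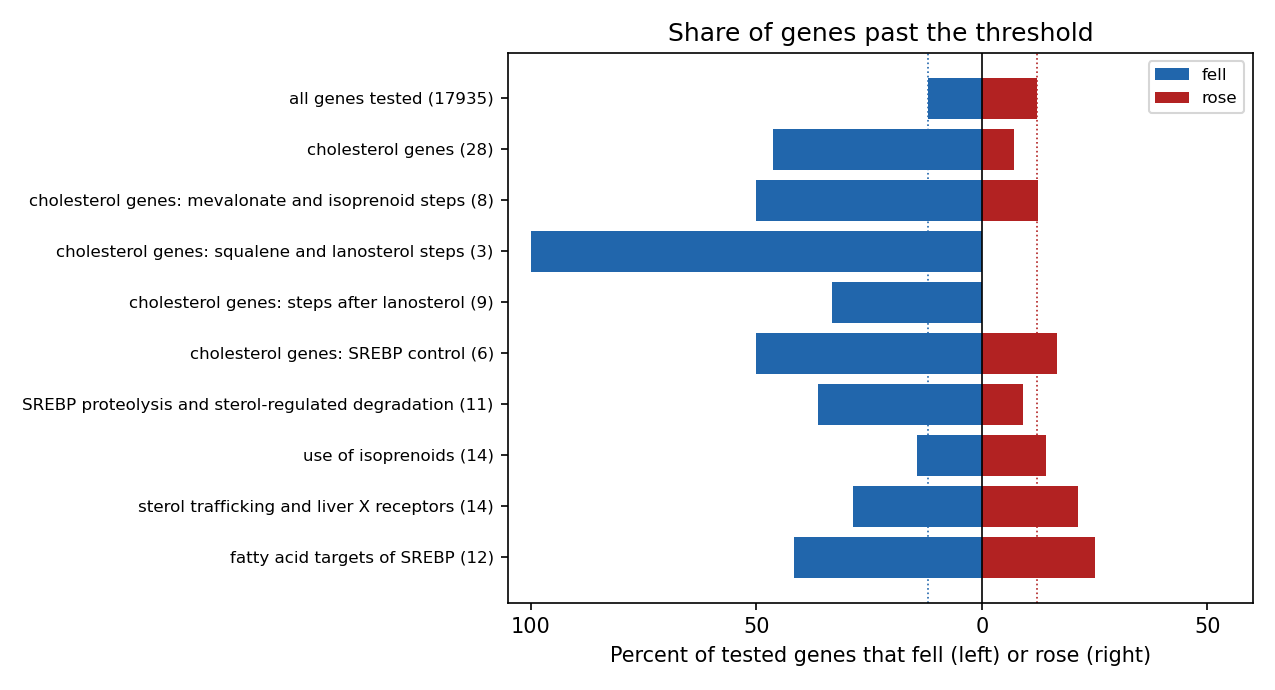
Percent of tested genes that fell (blue, left) or rose (red, right), with the number tested in brackets; dotted lines mark the 12% and 12.2% of all tested genes. The cholesterol genes reach 46.4% lower, the squalene and lanosterol steps 3 of 3; lists with under 4 tested genes other than that one are left out.

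Between single libraries, the pathway genes varied by a few percent. Among the control libraries, replicate 2 was the lowest for 17 of the 28 genes and replicate 1 the highest for 15. The median deviation of the 28 genes from the control mean was 0.03, -0.04 and 0.02 on the log2 scale in shcontrol replicates 1, 2 and 3, and -0.13, -0.13 and -0.09 in shATXN7L3 replicates 1, 2 and 3. Every shATXN7L3 library was thus lower than every control library in this median, while the median over all genes stayed within 0.011 of the control mean. The coefficient of variation was smaller in shATXN7L3 than in shcontrol for 21 of 28 genes (75.0%), against 61.3% of all tested genes. Among genes at 10 CPM or more the shares were closer, 18 of 25 pathway genes (72%) against 67.1% of 9478. Without shcontrol replicate 2, 12 genes fell and 2 rose. Without shcontrol replicate 1, 11 fell and 1 rose.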

How the data were processed

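Per the submitters' processing notes, reads were handled with Trimmomatic 0.36, STAR 2.5.3a, featureCounts of Subread 1.5.1 and edgeR 3.12.1 on GRCh38; no source used here gives the annotation release, strand setting or handling of multiply matching reads. The deposited values are raw counts per gene, which the authors did not normalize; the exonic length deposited beside them gave TPM. The treatment label gave the groups and the titles gave the replicate numbers. Genes were kept with filterByExpr (minimum count 10, minimum total 15) and tested with edgeR 4.0.16 in R 4.3.3 (TMM, quasi-likelihood F-test, group as the only term, Benjamini-Hochberg over all 17935 genes). SE is the log2 fold change divided by the square root of F. The common biological coefficient of variation was 4.37%. Within-group pairs of libraries gave a chi-square per gene of 1.59 to 6.52, above the 1 of sampling noise, so no library was treated as the same library deposited again; the value does not tell separate cultures from separate preparations. Same-numbered libraries did not deviate together (r = -0.02, 0.01 and 0.04). Log2 ratios of gene pairs used a prior count of 2. The steps were tested on simulated counts.

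All 29 genes are named; from neighbouring lists, up to 3 past the threshold with the smallest p. MBTPS2, FADS2 and the overlap partners were named after their values were seen. The genes and lists were chosen with earlier results of these data known. Alternatives were other scalings, no filter, a stricter filter (CPM of at least 1 in at least 3 libraries), DESeq2 1.42.0, a replicate block and leaving out each library. Motifs were searched in RefSeq promoters (GRCh38.p14).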

Additional observations from a re-analysis of the deposited data

How the results depend on the processing

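The 13 alternatives were 3 other scalings, no filter and a stricter filter on low counts, DESeq2, the replicate number as a block, and each of the 6 libraries left out. No value of ATXN7L3 or of the 28 tested genes reversed past the threshold. The count of pathway genes that fell was 13, and 10 to 13 under the alternatives (10 with library size alone, 11 with DESeq2, 10 to 13 with 1 library left out). The count that rose was 2; it was 4 with library size alone, 1 with DESeq2, and 1 to 2 with 1 library left out (1 without shcontrol replicate 1, shATXN7L3 replicate 1 or shATXN7L3 replicate 3). Over all genes, DESeq2 called 1405 higher and 1603 lower, against 2182 and 2150 with edgeR, and the cause was not tested. Leaving out 1 library gave 1543 to 2224 genes higher and 1547 to 2257 lower. With the replicate block, 2188 genes were higher and 2140 lower, and 13 pathway genes fell and 2 rose; the block changed no call among the 28 genes, and the numbers do not pair the libraries. Among the called genes of the neighbouring lists, ERLIN1, COQ2, OSBP, AMACR and ACSS2 lost their call under some alternative. Depth limits TM7SF2, MYLIP and SOAT2, as given with their counts. Overlap on opposite strands touches 11 of the 29 genes, 6 of them among the 15 that passed, and on the same strand TM7SF2 (16 bases).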
